A study of Mus musculus with 9 samples.

Results

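Monocytes and macrophages are recognised by a set of genes for engulfing, sensing and digesting particles, and 35 such genes were listed by symbol for this description. Of these, 34 were measured and Cd300e was not analysed here, out of 20680 genes in all. A gene was represented by the brightest of its probe sets, judged by the mean log2 value over 9 microarrays, and genotype played no part in that choice. The arrays came from 5 Ezh2-null and 4 wild-type (WT) acute myeloid leukaemias of mice, described in the labels as biological replicates. All of them, on the C57B/6 background, carried the retrovirus MLL-AF9-ires-GFP, whose oncogene joins the histone methyltransferase MLL to AF9. In all of them pIpC was given to switch on Cre, so Cre had also acted in the WT cells. Leukaemia was passed on to sublethally irradiated secondary recipients, and from their bone marrow the cells that carried GFP and YFP, the mark of Cre activity, were sorted once the mice were ill. The sources used here do not give the driver of Cre, the age of the mice or the primary leukaemia behind each recipient, so arrays of one origin cannot be told apart from independent ones, and p-values measure only the spread between these arrays. Ezh2 encodes a histone methyltransferase that silences genes as part of a Polycomb complex, and the comparison addresses what its loss changes in this leukaemia.

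MLL-AF9 leukaemia in mice has a myelomonocytic character, and its cells carry many genes of maturing monocytes. Blood monocytes enter tissues and can become macrophages, which take up antibody-coated particles through Fc gamma receptors, sense microbes through Toll-like receptors and lectins, clear haemoglobin and lipids through scavenger receptors, and break the cargo down with lysosomal proteases. PU.1, encoded by Spi1, and the C/EBP proteins are the main transcription factors of this lineage.

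None of the 34 genes passed the test between the genotypes. A change here is the mean log2 value of Ezh2-null arrays minus that of WT arrays. It was tested with limma at an adjusted p of 0.05, with Benjamini-Hochberg adjustment across the 20680 genes, of which 103 (0.498%) passed, 60 higher (0.290%) and 43 lower (0.208%) in Ezh2-null arrays. With any single array left out, between 17 and 330 genes passed. The smallest adjusted p among the 34 was 0.0946, for the Toll-like receptor gene Tlr2. At an unadjusted p under 0.05 stood 7 of the 34 (20.6%), beside 17.2% of all genes. These were Tlr2, Vcam1, Ctsb and C1qa, higher in Ezh2-null arrays, and Cd163, Cd68 and Ctss, lower. The arrays of the genotypes were fully separate in 4 of the 34 (11.8%), Tlr2, Ctsb, C1qa and Cd68, beside 5.90% of all genes. The median change was 0.03 over the 34 genes and 0.02 over all genes, with 19 positive and 15 negative changes. In 25 of the 34 the change was smaller than 0.5 in size, beside 17950 of the 20680 genes, a larger share. Single members thus differed widely between arrays while the list's median lay level with that of all genes. Leaving out a single array turned the sign of 8 of the 34 changes, none of them over 0.19 in size. It turned or moved 26 of the 34 by more than 1.5 times. Changes near 0 meet such a relative limit easily, and the share over all genes was not computed.

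**Figure D1:**
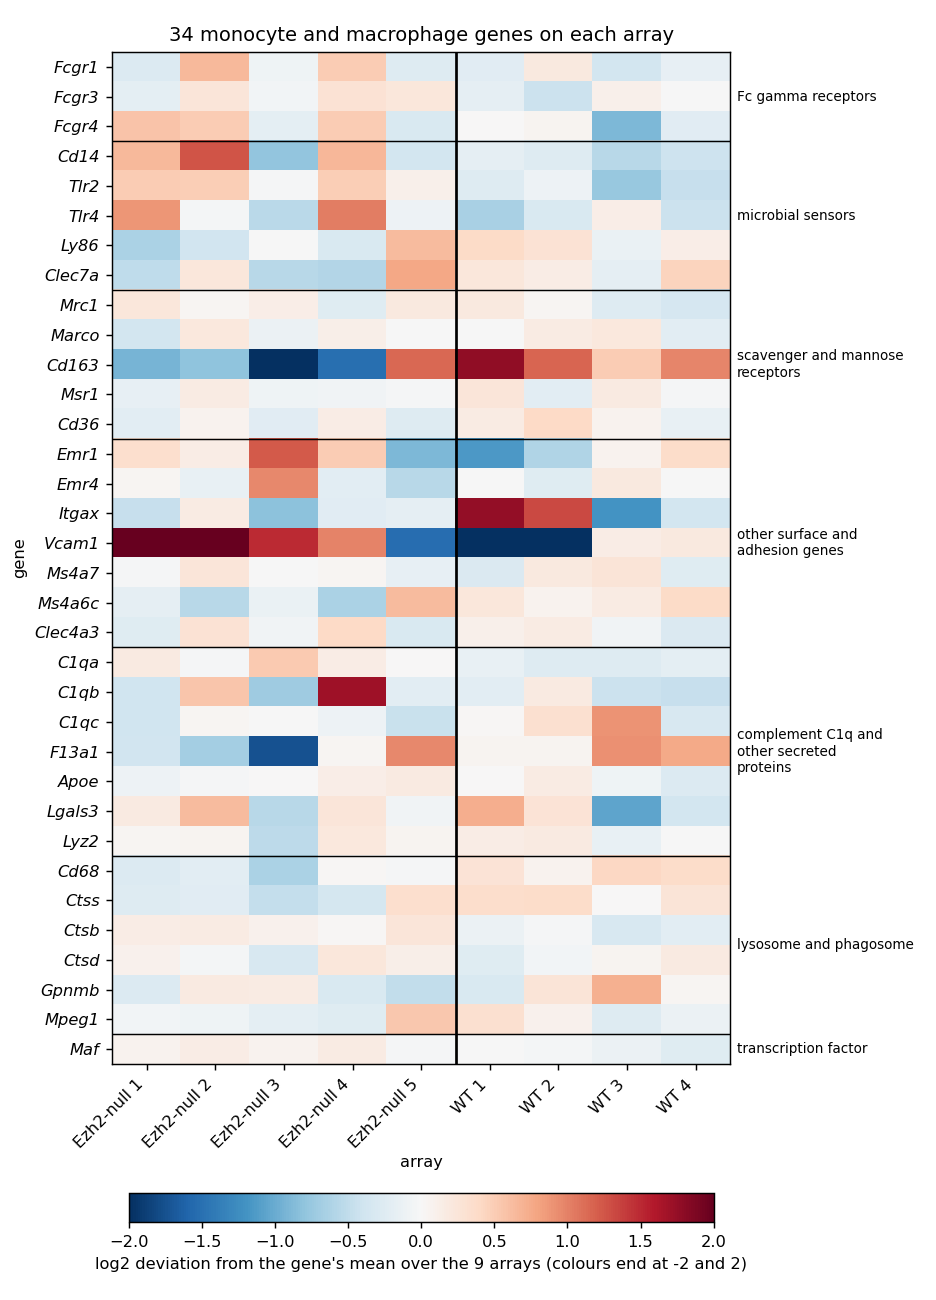
Log2 deviation of each of the 34 genes (rows, grouped by role) from its mean over the 9 arrays, with Ezh2-null arrays left and WT arrays right of the black line. Most rows are pale, while Cd163 is low on Ezh2-null replicates 1 to 4, Vcam1 is high on the same arrays, and Itgax is high on WT replicates 1 and 2.

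The targeted gene was lower on every Ezh2-null array, although where its probes lie relative to the deleted part was not examined. Ezh2 read 9.32, 9.33, 9.36, 8.95 and 9.07 on the Ezh2-null arrays, against 9.79, 10.61, 10.72 and 10.89 on the WT arrays (log2 intensity, in replicate order as in all such lists here). Its change was -1.30 (SE 0.21, limma adjusted p = 0.0373), with no overlap. The adjusted p was between 0.0748 and 0.103 when one of Ezh2-null replicates 1 to 4 or WT replicates 3 and 4 was left out, with a change between -1.53 and -1.17 over all single arrays left out. WT replicates 3 and 4 stood apart from all other arrays, at 58.9 and 51.8 on the first principal component of all genes, which held 36.7% of the variance. The Ezh2-null arrays lay between -29.5 and -9.83 on it, and WT replicates 1 and 2 lay at -0.67 and -2.33. The precision of each value is limited by there being 9 arrays. The sort does not separate kinds of leukaemic cells, so fewer cells of a type and less RNA per cell cannot be told apart.

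The listed genes were checked for whether the arrays measured them at usable brightness. Of the 34, 25 were brighter than the dimmest 40 percent of all genes by mean log2 value. Dimmer than that were the tissue macrophage genes Mrc1, C1qa, C1qb, C1qc and Ms4a7, together with Fcgr1, Cd36, Emr4 and Gpnmb. The files hold no detection call, and the brightness of different probe sets is not comparable, so whether these 9 transcripts were present is not known. The general monocyte and phagocyte genes Lyz2, Ctss, Ctsb, Mpeg1, Ms4a6c, Cd68 and Fcgr3 were among the 25.

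The promoters of the 34 genes were examined for short motifs of factors active in monocytes. RefSeq promoters of assembly GRCm38.p6, each 300 bases long and mostly ahead of a transcription start, were searched for 26 of the 34 genes. The PU.1 core motif, GAGGAA on either strand, was found in 15 of the 26 (57.7%), beside 31.3% of 27025 genes with a promoter. The AP-1 motif TGANTCA was found in 4, or 15.4% beside 8.97%, the C/EBP motif TTGCNNAA in 3, or 11.5% beside 12.2%, and the NF-kappaB motif (GGG, any 2 bases, TTTCC) in 2, or 7.69% beside 1.89%. A gene counted when any of its promoters held the motif on either strand. No motif contains another, though their ends can share bases. A match is a description of the letters and not a binding site.

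The promoters of Cd68, Ctss, Cd163 and Tlr2 are given 5′ to 3′ because these are the genes at an unadjusted p under 0.05 that have an entry. They are in lower case with motif matches on either strand in capitals. Cd68 lies at chr11:69666121-69666420 on the minus strand, Ctss at chr3:95526536-95526835 on the plus strand, Cd163 at chr6:124304401-124304700 on the plus strand and Tlr2 at chr3:83841559-83841858 on the minus strand. Cd68 held 5 matches, 2 of PU.1, 2 of AP-1 and 1 of C/EBP, and Ctss held 2 of PU.1, where TTCCTC is the PU.1 core on the other strand. Cd163 and Tlr2 held none of these letters in this window.
Cd68: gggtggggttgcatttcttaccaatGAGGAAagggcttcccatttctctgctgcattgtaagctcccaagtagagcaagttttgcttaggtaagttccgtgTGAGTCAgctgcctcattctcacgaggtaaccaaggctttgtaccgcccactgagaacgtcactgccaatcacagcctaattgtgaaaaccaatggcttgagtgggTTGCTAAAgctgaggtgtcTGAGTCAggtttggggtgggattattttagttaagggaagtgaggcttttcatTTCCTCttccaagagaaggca
Ctss: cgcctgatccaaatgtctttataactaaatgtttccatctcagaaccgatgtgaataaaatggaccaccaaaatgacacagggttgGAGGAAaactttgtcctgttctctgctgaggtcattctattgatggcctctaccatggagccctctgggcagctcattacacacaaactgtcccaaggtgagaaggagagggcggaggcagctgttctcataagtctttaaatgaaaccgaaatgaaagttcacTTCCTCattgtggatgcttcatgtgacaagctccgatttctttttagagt
Cd163: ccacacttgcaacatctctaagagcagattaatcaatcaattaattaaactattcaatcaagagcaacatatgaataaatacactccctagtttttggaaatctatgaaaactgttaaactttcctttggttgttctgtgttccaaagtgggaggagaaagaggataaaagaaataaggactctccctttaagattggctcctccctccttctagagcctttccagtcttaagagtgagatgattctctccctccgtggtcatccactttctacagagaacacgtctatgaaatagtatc
Tlr2: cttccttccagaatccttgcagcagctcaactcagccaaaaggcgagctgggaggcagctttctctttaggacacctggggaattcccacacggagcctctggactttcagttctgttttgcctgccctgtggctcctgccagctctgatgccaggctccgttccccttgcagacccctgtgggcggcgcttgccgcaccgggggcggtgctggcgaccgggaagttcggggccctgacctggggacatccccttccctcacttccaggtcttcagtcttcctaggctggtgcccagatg

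The Fc gamma receptors bind the constant part of IgG antibodies. Fcgr1, the high-affinity receptor CD64, read 6.68, 7.59, 6.86, 7.45 and 6.69 on Ezh2-null arrays, against 6.72, 7.14, 6.58 and 6.79 on WT arrays. Fcgr3, which encodes the low-affinity receptor CD16, read 10.61, 11.05, 10.75, 11.10 and 11.03 on Ezh2-null arrays, against 10.63, 10.38, 10.90 and 10.80 on WT arrays. In both genes the genotypes overlapped, with changes of 0.25 (95% confidence interval -0.24 to 0.74) and 0.23 (-0.10 to 0.56). Fcgr4, an activating receptor of mouse monocytes and neutrophils, ran from 8.53 to 9.41 in Ezh2-null arrays and from 7.93 to 8.89 in WT arrays, a change of 0.48 (SE 0.26). All 3 changes were positive and their limma adjusted p lay between 0.366 and 0.600. Single arrays carried much of them, since the change was 0.11 for Fcgr1 without Ezh2-null replicate 2, 0.13 for Fcgr3 without WT replicate 2 and 0.27 for Fcgr4 without WT replicate 3. Fcgr3 and Fcgr4 lie next to each other in RefSeq's gene table of GRCm38.p6.

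Among the sensors of microbes, Tlr2 was the member nearest to the threshold. TLR2 recognises bacterial lipoproteins. Tlr2 read 8.87, 8.85, 8.33, 8.85 and 8.46 on Ezh2-null arrays, against 8.10, 8.26, 7.61 and 7.90 on WT arrays. Every Ezh2-null array lay above every WT array, although the gap between the closest of them was small. The means were 8.67 ± 0.25 in Ezh2-null (SD, n = 5) and 7.97 ± 0.28 in WT (SD, n = 4), a 1.63-fold difference with a change of 0.71 (SE 0.17, limma adjusted p = 0.0946). The exact permutation p for Tlr2, two-sided, was 0.0159, where 5 against 4 arrays allow 0.00794 at the least. With array weights Tlr2 passed, with a change of 0.82 and a limma adjusted p of 0.0351, and without WT replicates 3 and 4 its change was 0.49 (adjusted p = 0.355).

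CD14 hands lipopolysaccharide to TLR4, and Ly86 encodes MD-1, the partner of the TLR4 relative RP105. Cd14 read 8.61, 9.21, 7.17, 8.62 and 7.59 on Ezh2-null arrays, against 7.77, 7.70, 7.39 and 7.55 on WT arrays. Ezh2-null replicates 1, 2 and 4 were above all WT arrays, replicate 5 lay among them and replicate 3 below them. The change of 0.64 (SE 0.37) had a limma adjusted p of 0.402, with an SD of 0.84 in Ezh2-null arrays (n = 5) and 0.17 in WT arrays (n = 4). Without Ezh2-null replicate 2 it was 0.39, and without Ezh2-null replicate 3 it was 0.90. Tlr4 ran from 8.23 to 9.81 in Ezh2-null arrays and from 8.13 to 8.92 in WT arrays, with a change of 0.56, while its 3 further probe sets stood at 0.14, -0.16 and 0.23. Ly86 and Clec7a, which encodes the beta-glucan receptor Dectin-1, had changes of -0.31 and -0.28. In both, Ezh2-null replicate 5 was the highest array of all, at 11.92 for Ly86 and 9.46 for Clec7a, and without it the changes were -0.50 (limma adjusted p = 0.194) and -0.51 (adjusted p = 0.273). They shrank to -0.18 for Ly86 without Ezh2-null replicate 1 and to -0.17 for Clec7a without Ezh2-null replicate 4.

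Cd163 differed most among the scavenger receptors. It encodes the macrophage receptor that takes up haemoglobin bound to haptoglobin, and it was read by 1 probe set. Cd163 was at 9.31, 9.43, 7.91, 8.72 and 11.39 on Ezh2-null arrays, against 12.01, 11.40, 10.74 and 11.20 on WT arrays. Ezh2-null replicates 1 to 4 lay below every WT array, and Ezh2-null replicate 5 lay within the WT range. The means were 9.35 ± 1.29 in Ezh2-null (SD, n = 5) and 11.34 ± 0.52 in WT (SD, n = 4), a 3.96-fold difference. The change of -1.99 (SE 0.58, 95% confidence interval -3.27 to -0.70) had a limma adjusted p of 0.137 and a two-sided exact permutation p of 0.0317. Without Ezh2-null replicate 5 Cd163 passed, with a change of -2.50 and a limma adjusted p of 0.0182. A fit with the replicate number as a block drops that same array, since no WT array shares its number, and gave the same change with an adjusted p of 0.00580. When any other single array was left out, the adjusted p was between 0.149 and 0.287.

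The other receptors for modified lipids, sugars and particles varied little in their brightest probe sets. Mrc1, the mannose receptor CD206, had a change of 0.16. Marco and Msr1, class A scavenger receptors, had changes of -0.07 and -0.09, and Cd36, a receptor for oxidised lipoprotein and fatty acids, had -0.22. Their limma adjusted p lay between 0.466 and 0.846. On every array Mrc1 lay between 5.56 and 6.11 and Msr1 between 7.76 and 8.21. The confidence interval of the change of Msr1, -0.36 to 0.19, was narrow beside that of Cd163. Further probe sets stood at -0.51, 0.10 and -0.28 for Msr1, at 0.18 for Marco and at 0.03 and 0.04 for Cd36.

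Vcam1 had the largest positive change and the widest spread of all 34 genes. VCAM-1 is an adhesion molecule that binds the integrin VLA-4, and it is found on marrow stromal cells and on macrophages of the erythroblast niche and the spleen. Vcam1 read 11.33, 11.21, 10.61, 10.11 and 7.60 on Ezh2-null arrays, against 5.85, 6.80, 9.26 and 9.31 on WT arrays. Ezh2-null replicates 1 to 4 lay above every WT array, Ezh2-null replicate 5 lay between the pairs of WT arrays, and WT replicates 3 and 4 were far above WT replicates 1 and 2. The change of 2.37 (SE 0.91, 95% confidence interval 0.36 to 4.38), or 5.16-fold, had a limma adjusted p of 0.222 and a two-sided exact permutation p of 0.0794. All 4 probe sets of Vcam1 had a positive change, at 2.37, 1.60, 0.61 and 0.39, and their mean gave 1.24. Without Ezh2-null replicate 5 the change was 3.01 (limma adjusted p = 0.0982), without WT replicate 1 it was 1.71 (0.302), and without WT replicates 3 and 4 it was 3.85 (0.166).

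**Figure D2:**
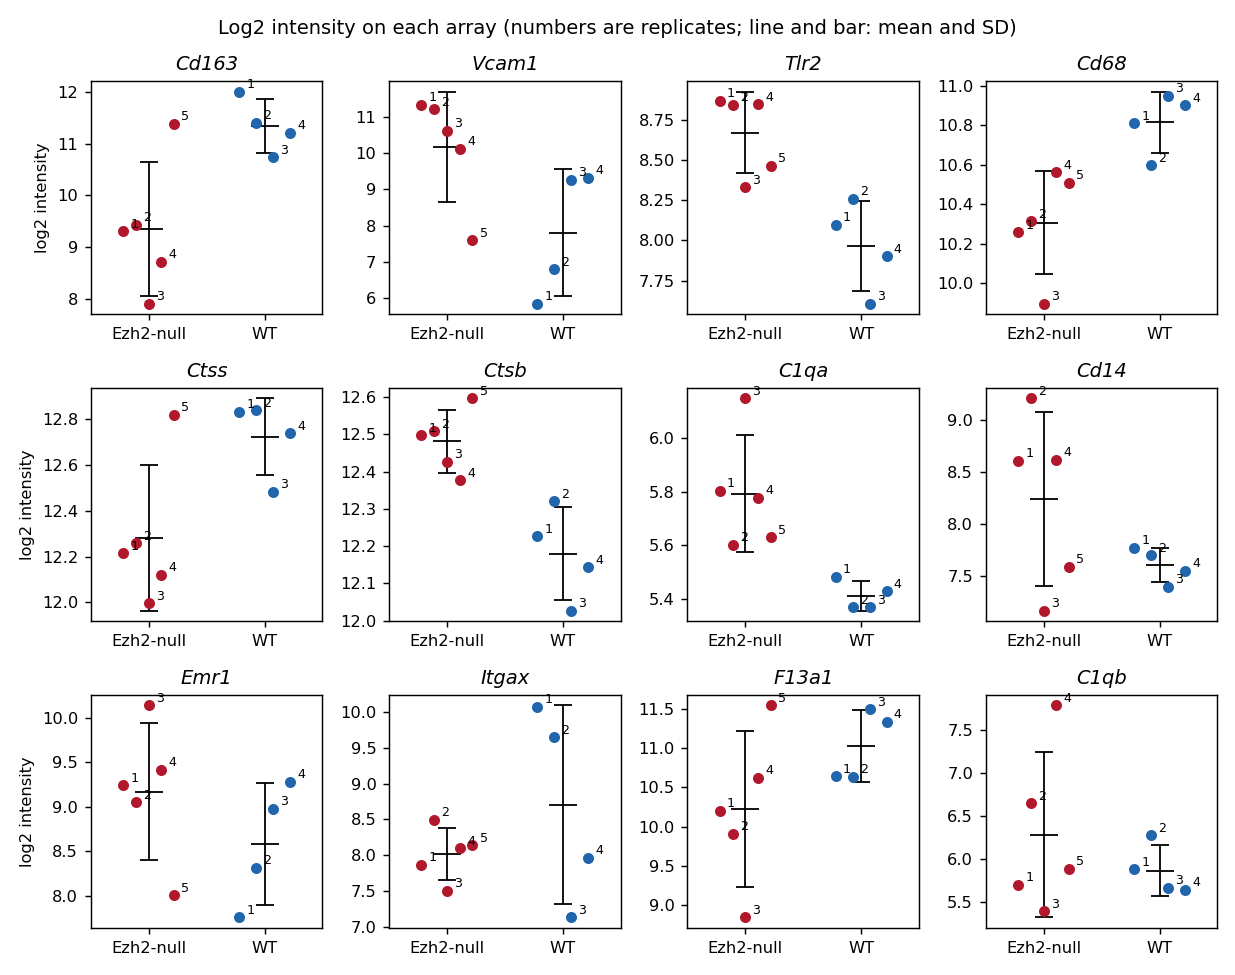
Log2 intensity on each array for the 7 genes at an unadjusted p under 0.05 and for the 5 further genes with a range over 2 log2 units, with Ezh2-null arrays in red, WT arrays in blue, replicate numbers beside the points, and mean and SD in black. Tlr2, Cd68, Ctsb and C1qa do not overlap between the genotypes, while Ezh2-null replicate 5 sits with the WT arrays for Cd163 and Ctss.

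Emr1 encodes F4/80, the usual surface marker of mouse macrophages. It read 9.24, 9.05, 10.14, 9.41 and 8.01 on Ezh2-null arrays, against 7.76, 8.31, 8.98 and 9.28 on WT arrays. The order of the arrays resembled that of Vcam1, with Ezh2-null replicate 5 and WT replicates 1 and 2 lowest. The change of 0.59 (SE 0.42) had a limma adjusted p of 0.501, and it was 0.31 when WT replicate 1 was left out and 1.13 when WT replicates 3 and 4 were (adjusted p = 0.408). Emr4, a relative of Emr1, had a change of 0.03 and was highest on the same array as Emr1, Ezh2-null replicate 3, at 6.70.

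Itgax, which encodes the integrin CD11c of dendritic cells and some macrophages, was described after its values were seen. It read 7.87, 8.50, 7.51, 8.09 and 8.14 on Ezh2-null arrays, against 10.08, 9.65, 7.13 and 7.96 on WT arrays. WT replicates 1 and 2 lay above every Ezh2-null array, and WT replicate 3 lay below every one. The change was -0.69 (SE 0.53, limma adjusted p = 0.547) with all arrays, -0.23 (adjusted p = 0.816) without WT replicate 1 and -1.84 (adjusted p = 0.0373) without WT replicates 3 and 4, where Itgax was the single listed gene that passed. Part of the dendritic cell markers split the WT arrays in the same way. The summed intensity of 6 such genes was 1004 to 3703 in Ezh2-null arrays, and in WT it was 4760 and 4746 on replicates 1 and 2 against 949 and 1334 on replicates 3 and 4. The sums are carried mainly by Flt3 and H2-Ab1, which with Siglech were higher on WT replicates 1 and 2 than on WT replicates 3 and 4, while Zbtb46, Xcr1 and Ccr9 did not split that way. None of the 6 markers passed, and 5 had a negative change. The remaining 1, higher in Ezh2-null arrays, was the only marker at an unadjusted p under 0.05 (16.7%, beside 17.2% of all genes). The part of these markers in the values of Itgax was not tested.

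The remaining surface genes belong to families of monocytes. Ms4a6c and Ms4a7 encode membrane-spanning proteins of the MS4A family, and Clec4a3 encodes a C-type lectin. Ms4a6c read between 11.29 and 12.55 on Ezh2-null arrays and between 11.99 and 12.31 on WT arrays, with a change of -0.39 (limma adjusted p = 0.421), and was again highest on Ezh2-null replicate 5. Ms4a7 and Clec4a3 had changes of 0.03 and 0.04, with confidence intervals of -0.30 to 0.36 and -0.35 to 0.43.

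**Figure D3:**
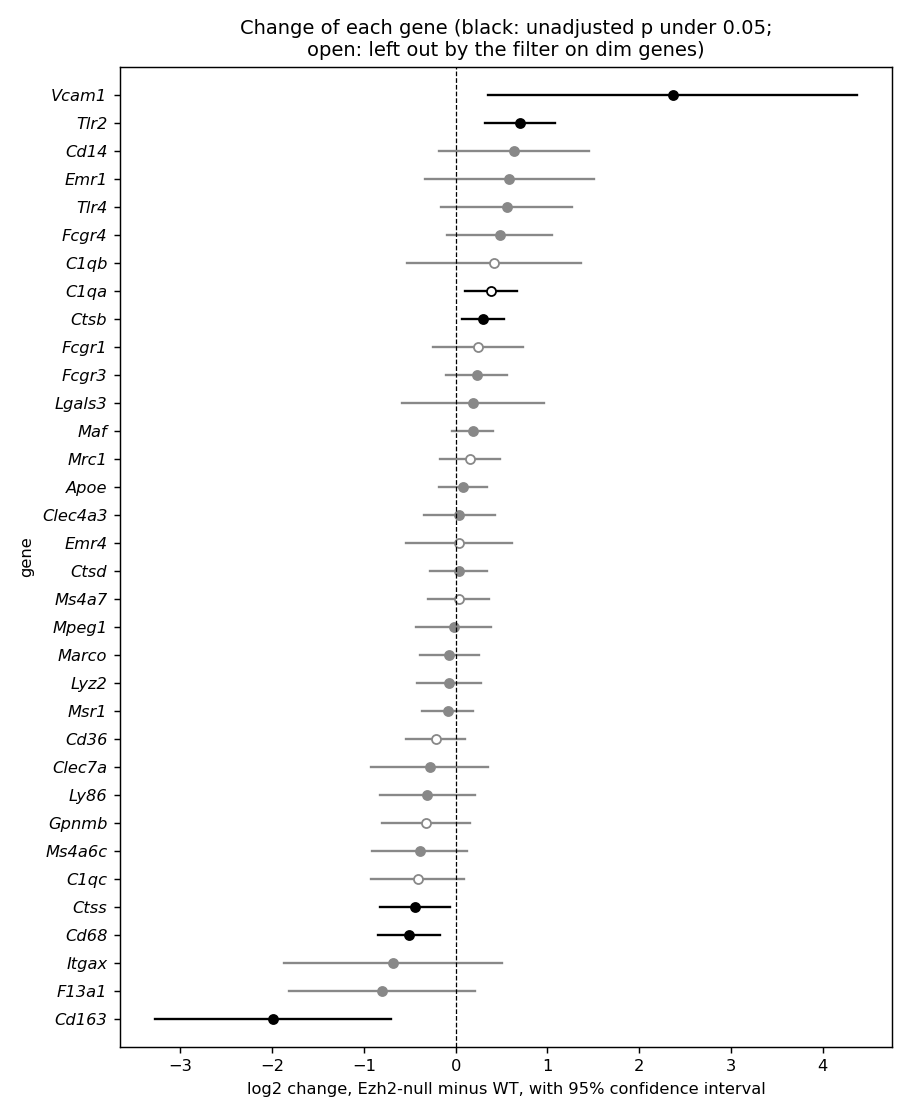
Log2 change (Ezh2-null minus WT) of the 34 genes with its 95% confidence interval from limma, sorted by change. The intervals of the 7 genes in black leave out 0 before adjustment, from Vcam1 at 2.37 to Cd163 at -1.99, and open circles mark the 9 genes in the dimmest 40 percent of all genes.

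The C1q genes encode the subunits of the first complement component, made by tissue macrophages, and lie next to each other on chromosome 4. C1qa read 5.80, 5.60, 6.15, 5.78 and 5.63 on Ezh2-null arrays, against 5.48, 5.37, 5.37 and 5.43 on WT arrays. C1qb read 5.70, 6.65, 5.39, 7.79 and 5.89 on Ezh2-null arrays, against 5.88, 6.28, 5.66 and 5.64 on WT arrays. C1qc read 5.46, 5.90, 5.85, 5.76 and 5.41 on Ezh2-null arrays, against 5.88, 6.19, 6.76 and 5.53 on WT arrays. The changes of the 3 neighbours differed in sign, and none passed. The genotypes did not overlap for C1qa (change 0.38, SE 0.13, limma adjusted p = 0.178), the change of C1qb (0.42, adjusted p = 0.650) came mostly from Ezh2-null replicate 4, and that of C1qc was negative (-0.41, adjusted p = 0.382). Without Ezh2-null replicate 4 the change of C1qb was 0.04, and without WT replicate 3 that of C1qc was -0.19. All 3 were among the 9 dim genes, and the probe set of C1qb is of the x_at kind, which can pick up related transcripts.

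Outside C1q, the secreted proteins of the list include lysozyme and a clotting factor chain of monocytes. Lyz2, which encodes the bactericidal lysozyme of myeloid cells, read 14.06, 14.08, 13.49, 14.23 and 14.08 on Ezh2-null arrays, against 14.17, 14.20, 13.87 and 14.00 on WT arrays. Its change was -0.07 (95% confidence interval -0.42 to 0.28, limma adjusted p = 0.853), and Ezh2-null replicate 3 alone stood below the others. Lyz1, a near-identical gene whose transcript could bind the same probes, was lowest on the same array, at 13.21. F13a1, the A chain of coagulation factor XIII, was described after its values were seen. It read 10.20, 9.91, 8.84, 10.63 and 11.55 on Ezh2-null arrays, against 10.64, 10.63, 11.50 and 11.34 on WT arrays. Ezh2-null replicate 5 was the highest of all arrays and replicate 3 the lowest, and the change was -0.80 (SE 0.46, limma adjusted p = 0.394), -1.13 without Ezh2-null replicate 5 (adjusted p = 0.182) and -0.46 without Ezh2-null replicate 3 (adjusted p = 0.568). Lgals3, the galectin-3 gene, and Apoe, the lipid carrier of macrophages, had changes of 0.19 and 0.08. The change of Lgals3 was 0.47 without WT replicate 1 and turned to -0.13 without WT replicate 3, and that of Apoe was 0.0047 without WT replicate 4.

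Lysosome and phagosome genes held 3 of the 7 members at an unadjusted p under 0.05, and they pointed both ways. That was 3 of the 6 genes in this group (50%), beside 17.2% of all genes. Cd68, which encodes a lysosomal membrane glycoprotein, read 10.26, 10.31, 9.90, 10.56 and 10.51 on Ezh2-null arrays, against 10.81, 10.60, 10.95 and 10.90 on WT arrays. The genotypes did not overlap, although Ezh2-null replicate 4 and WT replicate 2 were almost level. The change of Cd68 was -0.51 (SE 0.15, limma adjusted p = 0.144, two-sided exact permutation p = 0.0159). Ctss, the cathepsin of antigen processing, read 12.21, 12.26, 11.99, 12.12 and 12.82 on Ezh2-null arrays, against 12.83, 12.84, 12.48 and 12.74 on WT arrays. As with Cd163, Ezh2-null replicates 1 to 4 lay below every WT array and replicate 5 within them, with a change of -0.44 (SE 0.17, limma adjusted p = 0.223). Cd68 and Ctss both have the PU.1 core in the promoters printed above.

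Ctsb, a general lysosomal cysteine protease, had a small positive change with little spread between arrays. It read 12.50, 12.51, 12.43, 12.38 and 12.60 on Ezh2-null arrays, against 12.23, 12.32, 12.03 and 12.14 on WT arrays. The groups did not overlap, and the change of 0.30 (SE 0.10, 95% confidence interval 0.07 to 0.53) had a limma adjusted p of 0.184. The two-sided exact permutation p of 0.00794 was the smallest that 5 against 4 arrays allow. Its further probe sets disagreed, at 0.81, 0.18, -0.12 and -0.35, and the negative ones were the dimmest. Ctsd, the aspartic protease of the lysosome, had a change of 0.03, and Mpeg1, the pore-forming perforin-2 gene, had -0.02. Gpnmb, a glycoprotein gene of lipid-laden macrophages, had -0.32, while its other, dimmer probe set stood at 0.48 (SE 0.11, limma unadjusted p = 0.00174). Over the list, 12 genes had several probe sets, and 13 of the 27 further probe sets had the opposite sign to the brightest. Some of these were very dim, such as that of Ms4a7, with means of 3.34 in Ezh2-null and 3.43 in WT arrays. The small changes of these genes thus depend on the probe set.

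Maf, the list's transcription factor, which takes part in macrophage differentiation, had a range of 0.40 log2 units over the 9 arrays. It lay between 7.84 and 8.03 on Ezh2-null arrays and between 7.62 and 7.86 on WT arrays, which overlapped. The change was 0.19 (SE 0.10, limma adjusted p = 0.365), with a two-sided exact permutation p of 0.0238. Of its 5 further probe sets 3 had a negative sign.

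The large differences between arrays followed genotype only in part. A range of more than 2 log2 units over the 9 arrays was found for 7 of the 34 genes (20.6%), beside 6.33% of all genes. These were Vcam1, Cd163, Itgax, F13a1, C1qb, Emr1 and Cd14. The SD was larger in Ezh2-null than in WT arrays for 19 of the 34 (55.9%), beside 37.5% of all genes, with a median SD of 0.32 in Ezh2-null and 0.23 in WT arrays for the list, and 0.21 and 0.25 for all genes. Ezh2-null replicate 5 lay outside the other 4 Ezh2-null arrays in 19 of the 34 genes, or 55.9% beside 38.7% of all genes. For Ezh2-null replicates 1 to 4 the number was 10 to 15, or 29.4% to 44.1% beside 36.4% to 44.9% of all genes. WT replicate 3 lay outside the other WT arrays in 23 genes, or 67.6% beside 44.4% of all genes. WT replicates 1, 2 and 4 did so in 13 to 16, or 38.2% to 47.1% beside 48.7% to 53% of all genes. These shares describe the arrays and were not tested.

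**Figure D4:**
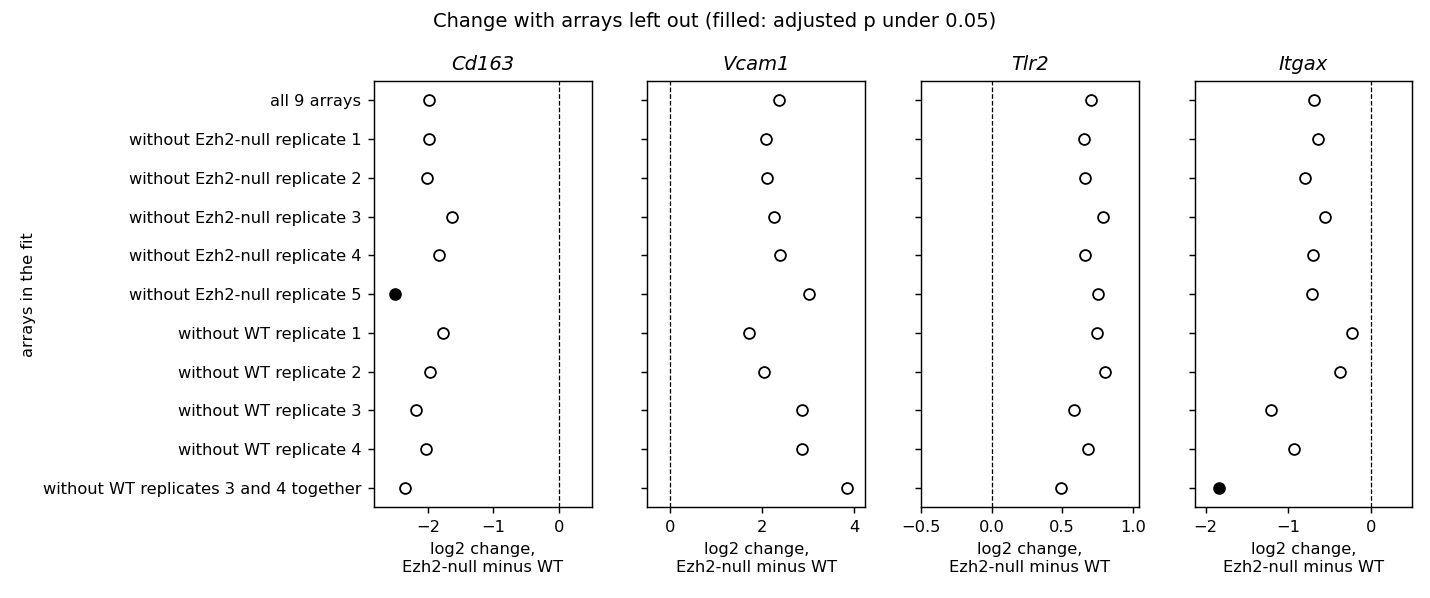
Log2 change (Ezh2-null minus WT) of Cd163, Vcam1, Tlr2 and Itgax with all 9 arrays and with arrays left out, filled where the limma adjusted p over all genes was under 0.05. The direction held in every fit shown, and the filled points are Cd163 without Ezh2-null replicate 5 (-2.50) and Itgax without WT replicates 3 and 4 (-1.84).

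Other genes of monocytes and macrophages, 51 measured of 54 listed, gave a similar count. None passed, 5 were higher and 5 lower at an unadjusted p under 0.05 (19.6%, beside 17.2% of all genes), and the median change was 0.00. Nearest to the threshold was Ccr2, the chemokine receptor that brings inflammatory monocytes out of marrow. Ccr2 read 10.02, 9.53, 9.33, 9.84 and 10.91 on Ezh2-null arrays, against 11.59, 10.92, 11.35 and 11.91 on WT arrays. The change was -1.52 (SE 0.31, limma adjusted p = 0.0681), and as with Cd163 Ezh2-null replicate 5 was nearest to WT, level with WT replicate 2. Ccr2 passed without Ezh2-null replicate 5 (-1.76, adjusted p = 0.0125), without WT replicate 2 (-1.69, adjusted p = 0.0443) and with the replicate number as a block (adjusted p = 0.0184).

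Of 9 growth factor receptors and transcription factors, Klf4, a factor of monocyte maturation, had a change of -1.65 (SE 0.51, limma adjusted p = 0.155). Nr4a1, which non-classical monocytes need, had 0.74 (adjusted p = 0.137). Among 18 innate surface and signalling genes, Cybb, the oxidase subunit gp91phox, had 0.81 (adjusted p = 0.317). Of 13 lysosomal genes 6 (46.2%, beside 17.2% of all genes) were at an unadjusted p under 0.05, 4 higher and 2 lower. In the lists before, 3 of the 9 (33.3%) and 1 of the 18 (5.56%) were. The lysosomal genes Ctsc and Lamp2 had changes of 0.40 and 0.48, with limma adjusted p of 0.134 and 0.134. They were the 2 of these 13 (15.4%) without overlap between the genotypes. Of all 51 genes 5 (9.8%), Ccr2 included, did not overlap, beside 5.90% of the 20680 genes. The 11 tissue macrophage genes had none at an unadjusted p under 0.05, and the smallest p belonged to Cd5l (0.22) and Nr1h3 (0.25).

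Markers of other cells were summed on each array beside these genes. Of 12 neutrophil genes 10 were measured, all 10 had a positive change and none passed, with a median change of 0.84. At an unadjusted p under 0.05 stood 5 of them (50%), beside 17.2% of all genes, and their smallest limma adjusted p was 0.0611. The summed intensity of the 10 was 77345 to 129628 on Ezh2-null arrays and 29198 to 103749 on WT arrays, lowest on WT replicates 3 and 4. Cd14, Fcgr4, Tlr2 and Lyz2 are also known in neutrophils. Of 6 mast cell, basophil and eosinophil markers 4 had a positive change and none passed. Of the 6, 2 (33.3%) were at an unadjusted p under 0.05, and 2 (33.3%, beside 5.90% of all genes) did not overlap between the genotypes. The sum of the 6 was 886 to 9412 on Ezh2-null arrays and 479 to 596 on WT arrays, and it rests on the eosinophil granule gene Prg2 (limma adjusted p = 0.0894). The smallest limma adjusted p, 0.0569, belonged to another of the 6. Without Prg2 the sums overlapped, at 439 to 629 on Ezh2-null arrays and 363 to 460 on WT arrays, a sum formed after seeing the data. Prg2 was at 13.11 on Ezh2-null replicate 3. On that array 15 of the 34 genes (44.1%, beside 37.9% of all genes) lay outside the other Ezh2-null arrays. Emr1, Emr4 and C1qa lay above them, and the rest, Cd163, F13a1, Cd68 and Lyz2 included, lay below. All 6 megakaryocyte and platelet markers had a positive change, and their sum was 1073 to 1296 on Ezh2-null arrays and 788 to 937 on WT arrays. None of these markers passed, 3 (50%) were at an unadjusted p under 0.05, and the smallest limma adjusted p was 0.0659. Endothelial and stromal markers summed to 1078 to 1250 on Ezh2-null arrays and 863 to 1122 on WT arrays, with 4 of 7 positive and 2 at an unadjusted p under 0.05. Of 6 stem and progenitor markers 5 had a positive change, with a median of 0.90, none passed, and the genotypes did not overlap for Gata2 (1.46, limma adjusted p = 0.0785) and Cd34 (1.90, adjusted p = 0.137). Their sums overlapped, at 12347 to 14347 on Ezh2-null arrays and 10588 to 13062 on WT arrays. Of 5 NK cell markers 3 had a positive change and none passed, with Nkg7 at 1.25 (adjusted p = 0.0985). All 6 T cell and all 5 measured B cell markers had a positive change, with medians of 0.13 and 0.10 and none at an unadjusted p under 0.05. Of the erythroid markers 3 of 6 had a positive change. The sums of these 4 lists overlapped between the genotypes. The unadjusted p was under 0.05 for 2 of the 6 stem and progenitor markers (33.3%), 2 of the 5 NK cell markers (40%) and no erythroid marker. Without a detection call, a reading above 0 does not show that a marker or its cells were present. The part of any of these cells in the results above was not tested.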

How the data were processed

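Gene expression was measured on 9 microarrays, 5 Ezh2-null and 4 WT, grouped and numbered by their titles. Per the labels' protocols, RNA was extracted with Trizol, amplified and coupled to biotin. The authors deposited one intensity for each probe set, for which the submitters' processing notes name RMA, version not given. The linear scale was read off the numbers themselves. Another deposited intensity file gives these arrays after ComBat with a further series, per the file header, and supplied the gene symbols and an alternative. In it, 7 columns belonging to other samples were ignored, and 2 values under 1 were set to 1.

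Of 45101 probe sets, 64 were controls, 5820 named no gene and 1399 named several, and none of these was used. The brightest probe set of each of 20680 genes was compared on the log2 scale with limma 3.58.1 (R 4.3.3). The model held genotype alone, and p-values are two-sided. The procedure was tested on simulated data. Confidence intervals are at 95% and unadjusted.

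Alternatives changed the table (batch-adjusted), the filter on dim genes, the use of probe sets, the scaling (quantile or median centring), the variance model (array weights, or a trend with robust estimation), the replicate number as a block, the arrays (each left out) and the threshold (0.1). The fit without WT replicates 3 and 4, and marker sums without their brightest gene, were added after seeing the data. The members and lists were chosen with earlier results of these data known. Values on every array are given for members at an unadjusted p under 0.05 and for Cd14, Cd68, Emr1, Fcgr1, Fcgr3, Lyz2 and C1qa to C1qc, and of other monocyte and macrophage genes the 2 with the smallest p in each list are named. Itgax, F13a1, Lyz1 and the single marker genes named (Prg2, Gata2, Cd34, Nkg7 and those of dendritic cells) were singled out after their values were seen. All 34 symbols matched RefSeq's gene table of GRCm38.p6, 2 of them through a synonym. Promoters of chromosome 18, that of Cd14 among them, were not searched. The sources used here do not give the array's annotation build.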

Additional observations from a re-analysis of the deposited data

Results flagged for a closer look

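In 70 tests of a group for a single array far from the others, 2 members were picked out, and chance picks about 1 in 20. Lyz2 read 13.49 on Ezh2-null replicate 3, against 14.06 to 14.23 on the other Ezh2-null arrays. Mpeg1 read 12.96 on Ezh2-null replicate 5, against 12.17 to 12.36 on the other Ezh2-null arrays.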

How the results depend on the processing

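None of the 34 genes passed in 15 of 20 alternatives. In each of the other 5 a single gene passed: Tlr2 with array weights (1) and at a threshold of 0.1 (1), Cd163 without Ezh2-null replicate 5 and with the replicate block, which drops the same array (1), and Itgax without WT replicates 3 and 4 together (1). With single arrays left out the number was 0 to 1. The median change of the 34 ran from -0.05 to 0.06 over 19 alternatives. Lyz2 changed sign without Ezh2-null replicate 3, at 0.052 in place of -0.07, and the other members with values on every array given by rule kept their sign in all alternatives. The number of all genes that passed, 103 with all arrays, was 202 in the batch-adjusted table, 1007 with array weights, 488 at a threshold of 0.1 and 61 without WT replicates 3 and 4. With single arrays left out it ran from 17 to 330: 24, 22, 29, 31 and 221 without Ezh2-null replicates 1 to 5, and 241, 330, 24 and 17 without WT replicates 1 to 4. The cause was not tested. Ezh2 kept its direction and lost its call with the replicate block (-1.26, adjusted p = 0.0815) and without WT replicates 3 and 4 (-0.99, adjusted p = 0.149), and with single arrays left out it ran from -1.53 to -1.17, lost without Ezh2-null replicates 1 to 4 and without WT replicates 3 or 4. The deviations of same-numbered arrays had correlations across genes of -0.14 to 0.13, with 1 of 4 WT arrays most like its own number. With so few arrays, centred within each genotype, these values cannot tell whether the numbers mark a shared origin or batch. Under the block the call moved for Cd163 among the 34 genes, for Ezh2 and, of 10 other genes named and refitted, for Ccr2 alone. Prg2 passed without Ezh2-null replicate 5 (3.96, adjusted p = 0.0433). Brightness limits the 9 dim members, whose small differences rest on values without a detection call.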
